A study of Mus musculus with 6 samples.

Results

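Respiratory complex I (NADH:ubiquinone oxidoreductase) was followed through the genes that carry its family name. Members were the protein-coding genes of GENCODE M21 named Ndufa, Ndufab, Ndufb, Ndufc, Ndufs, Ndufv or Ndufaf with a number, and Ndufa4l2, and they were found by name and not by any measured value. The rule found 46 genes among the 18951 gene rows of the deposited count table. They comprise 7 core subunits, 10 accessory subunits of the peripheral arm, 19 accessory subunits of the membrane arm, 8 assembly factors of the Ndufaf series, and the pair Ndufa4 and Ndufa4l2. Ndufb1 was not matched by the rule and is not analysed here.

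Complex I is the first enzyme of the mitochondrial respiratory chain. It takes electrons from NADH through a flavin and a chain of iron-sulfur clusters in its peripheral arm to ubiquinone, and pumps protons across the inner membrane through its membrane arm. The core subunits do this chemistry, and those of the pumping arm are encoded in mitochondrial DNA. Accessory subunits surround the core, and assembly factors help to build the enzyme but are not part of the finished complex. Heart muscle is dense in mitochondria and relies on this chain for most of its ATP.

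RNA sequencing was done on neonatal mouse cardiomyocyte cultures, 3 labelled si-Rbm22 and 3 labelled si-Control. Both groups were labelled as strain C57BL/6 (C57BL/6J in the protocol), postnatal day 1, heart cells separated with a tissue dissociation kit, kept in serum-containing medium, and used when staining for cardiac troponin T put their purity above 97.5%. The si-Rbm22 cultures received siRNA against Rbm22, which encodes an RNA-binding protein of the spliceosome, the si-Control cultures received a scrambled siRNA, and both were collected after 48 h. The protocol calls the samples biological replicates without saying that each had its own cell isolation, so the tests speak only of the spread among these cultures, which may be technical.

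Total counts were between 34269042 and 37344860 reads per library. Rbm22 was at 23.2 ± 1.79 CPM (read counts relative to the library total, scaled by TMM; mean ± SD, n = 3 here and throughout) in the si-Control-labelled libraries and at 13.5 ± 0.892 CPM in si-Rbm22 (log2 fold change −0.78, SE 0.097, adjusted p = 4.22e-06 by edgeR). The si-Control-labelled libraries went against their cell type label. The summed level of 10 cardiomyocyte markers was 47.0 to 54.4 CPM there and 24600 to 38300 CPM in si-Rbm22, and Myl7, Myl2, Myl3, Pln and Nppa had no read in any si-Control-labelled library. Summed fibroblast markers were at 21400 to 23200 CPM against 5620 to 5800 CPM, and summed endothelial markers at 4.49 to 5.68 CPM against 291 to 337 CPM. Markers of skeletal muscle precursors summed to 1190 to 1260 CPM against 365 to 525 CPM, and Myod1, Myf5, Cdh15 and Cacng1 among them had no read in si-Rbm22. Nearly all of the si-Rbm22 sum was Des, at 456, 525 and 365 CPM. Epicardial markers were at 50.2 to 53.7 CPM against 2370 to 2600 CPM, macrophage markers at 5.49 to 7.36 CPM against 118 to 153 CPM and Schwann cell markers at 1.79 to 2.09 CPM against 86.2 to 95.4 CPM. Smooth muscle markers were at 3240 to 3270 CPM against 1290 to 1650 CPM and red blood cell markers at 0 to 0.0576 CPM against 0.737 to 1.28 CPM. All 10 cardiomyocyte and all 8 endothelial markers were higher in si-Rbm22, of 8 fibroblast markers 5 were lower and 2 higher, and of 7 smooth muscle markers 4 were lower and 3 higher. In bulk RNA, fewer cells of a type and less RNA per cell cannot be told apart, and the part of these marker differences in any value below was not tested. Every comparison below is of si-Rbm22 with libraries that held few cardiomyocyte transcripts.

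Over all members, transcripts of complex I were more often higher than lower in si-Rbm22. Of the 45 members with enough reads to be tested, 28 were higher, 7 were lower and 10 did not pass (edgeR quasi-likelihood test, Benjamini-Hochberg adjusted p under 0.05 over 14621 genes). That is 77.8% called, beside 82.0% of all genes tested. The share higher was 62.2%, beside 43.1% of all genes, and the share lower was 15.6%, beside 38.9%. The median log2 fold change of the members was 0.39, and that of all genes tested was 0.05. Differences within the complex ran from −0.65 for Ndufa13 to 1.93 for Ndufab1, and 6 members were higher by at least 2-fold (24.4% of all genes were). In 33 of the 45 members the 3 libraries of one group did not overlap those of the other, which held for 84.2% of all genes.

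**Figure D1:**
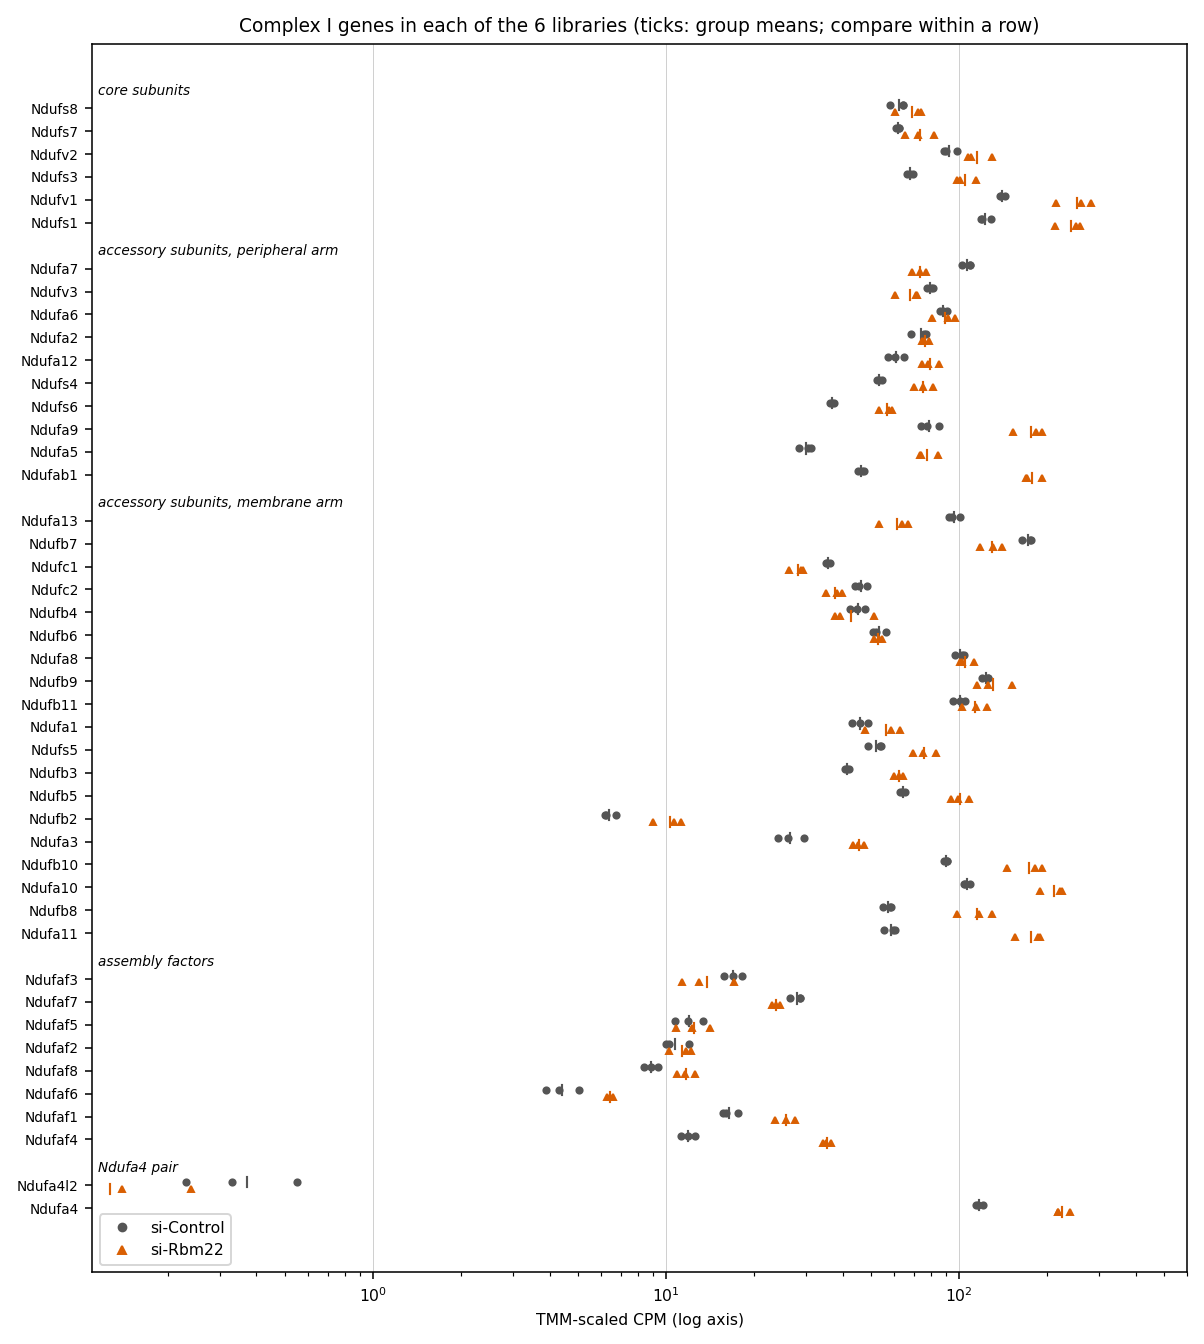
TMM-scaled CPM (log axis) of the complex I genes in the 3 si-Control-labelled libraries (circles) and the 3 si-Rbm22 libraries (triangles), grouped by role, with group means as ticks. CPM is not corrected for gene length, so points are to be compared within a row: Ndufab1 went from 45.0 to 47.3 CPM to 169 to 192 CPM, while Ndufb6 overlaps completely. The si-Rbm22 library without an Ndufa4l2 read is not drawn.

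Summed over the 36 nuclear-encoded subunits, the level was 2755, 2663 and 2800 CPM in the si-Control-labelled libraries and 4233, 3950 and 3535 CPM in si-Rbm22. All 3 si-Rbm22 libraries were above all 3 others, and replicate 3 was the lowest of them. The ratio of the means was 1.43, with an exact two-sided permutation p of 0.1, the smallest that 3 against 3 libraries can give. As a share of the library the subunits took 0.277% ± 0.00738 of reads in the si-Control-labelled libraries and 0.386% ± 0.0276 in si-Rbm22. Replicate 3 of si-Rbm22 also had the lowest level of the cardiac myosin gene Myh6, at 10200 CPM beside 18400 CPM in each of the other 2, and the part of this in the subunits' lower level was not tested.

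By role, the core subunits differed most in sum, at 763 ± 14.6 CPM against 1231 ± 125 CPM (ratio 1.61). Accessory subunits of the peripheral arm were at 655 ± 21.7 CPM against 949 ± 66.3 CPM (ratio 1.45), and those of the membrane arm at 1321 ± 36.6 CPM against 1726 ± 160 CPM (ratio 1.31). The 8 assembly factors together stood at 109 ± 5.5 CPM against 140 ± 6.11 CPM (ratio 1.29). None of these 4 sums overlapped between the groups, each with an exact permutation p of 0.1, and the differences between the 4 ratios were not tested.

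**Figure D2:**
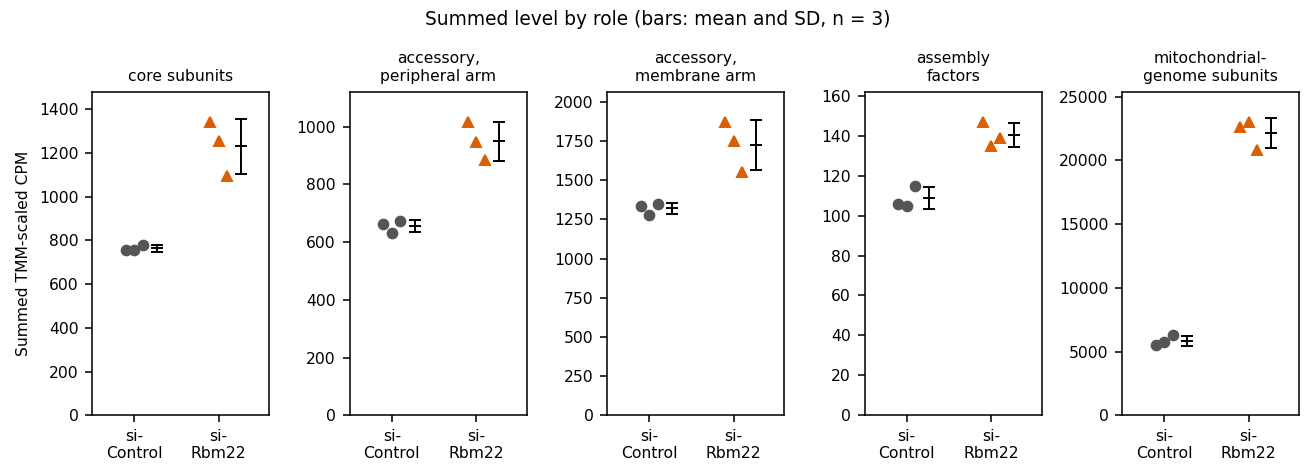
Summed TMM-scaled CPM by role in each library, with the mean and SD of the 3 libraries beside the points; each vertical axis starts at 0 and has its own range. In all 5 panels the si-Rbm22 libraries lie above those labelled si-Control, by a ratio of 1.29 for the assembly factors and 3.79 for the subunits encoded in mitochondrial DNA.

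The 7 nuclear-encoded core subunits carry the flavin and the iron-sulfur clusters. Of these, 6 were higher in si-Rbm22 (85.7%, beside 43.1% of all genes) and Ndufs8 did not pass, with a median log2 fold change of 0.62. Ndufs1 (ENSMUSG00000025968; GRCm38 chromosome 1, 63143596 to 63176833, minus strand, 18 introns), the largest subunit and the holder of several of the clusters, was at 119, 120 and 128 CPM in the si-Control-labelled libraries and at 258, 250 and 212 CPM in si-Rbm22. Its groups lay far apart (log2 fold change 0.97, SE 0.073, adjusted p = 2.24e-08). Ndufv1, which binds NADH and the flavin, was at 138, 143 and 139 CPM against 281, 260 and 214 CPM (log2 fold change 0.85, SE 0.085, adjusted p = 1.36e-06). In both of these genes replicate 3 of si-Rbm22 was the lowest of its group and still above every si-Control-labelled library.

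Ndufs3, a subunit of the ubiquinone-binding module, was at 66.3, 67.8 and 69.4 CPM against 114, 101 and 98.0 CPM (log2 fold change 0.62, SE 0.066, adjusted p = 7.79e-07). Ndufv2, Ndufs7 and Ndufs8 moved less. Ndufv2, which forms the NADH-binding module with Ndufv1, was at 92.7 ± 5.04 CPM against 115 ± 12.1 CPM (log2 fold change 0.32, SE 0.075, adjusted p = 0.00142). Ndufs7, which holds the last cluster before ubiquinone, was at 62.5, 61.0 and 62.4 CPM against 81.9, 72.3 and 65.5 CPM, without overlap (log2 fold change 0.24, SE 0.075, adjusted p = 0.00915). Its call depended on replicate 1 of si-Rbm22, without which the log2 fold change of Ndufs7 was 0.14 (adjusted p = 0.0724). Ndufs8, which holds a pair of clusters in the same module, was at 64.3, 57.9 and 64.3 CPM against 74.1, 72.2 and 60.2 CPM. There replicate 3 of si-Rbm22 lay within the range of the si-Control-labelled libraries (log2 fold change 0.15, SE 0.080, adjusted p = 0.105), and without it Ndufs8 passed, at 0.23 (adjusted p = 0.0016).

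Among the 10 accessory subunits of the peripheral arm, 6 were higher, 2 lower and 2 did not pass, with a median log2 fold change of 0.44. The share called was 80.0%, beside 82.0% of all genes, and 60.0% were higher, beside 43.1%. Ndufab1 (ENSMUSG00000030869; chromosome 7, 122085403 to 122101886, minus strand, 4 introns) encodes the mitochondrial acyl carrier protein, which also serves fatty acid synthesis and the making of iron-sulfur clusters. It had 1693, 1718 and 1562 reads in the si-Control-labelled libraries and 7016, 6087 and 6388 reads in si-Rbm22. This was 46.4 ± 1.21 CPM against 177 ± 12.7 CPM, a ratio of 3.82 and the largest log2 fold change of the 45 tested members (1.93, SE 0.065, adjusted p = 2.81e-12). Processed pseudogenes Gm4459 and Ndufab1-ps match part of its transcript at 99.8% and 99.4% identity and are not rows of the table, so its level is uncertain to the extent that reads were shared with them.

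Ndufa5, a small subunit of the matrix side, was at 30.6, 28.5 and 31.1 CPM against 85.0, 74.1 and 73.6 CPM (log2 fold change 1.37, SE 0.074, adjusted p = 5.2e-10). Ndufa9, which holds a bound nucleotide near the joint of the arms, was at 77.6, 73.9 and 85.1 CPM against 192, 183 and 153 CPM (log2 fold change 1.16, SE 0.086, adjusted p = 7.54e-08). In both genes every si-Rbm22 library was above the highest si-Control-labelled one. Ndufs6, a zinc-binding subunit, Ndufs4, which joins late in assembly, and Ndufa12, a relative of the assembly factor Ndufaf2, were higher with log2 fold changes of 0.62, 0.50 and 0.39.

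Ndufa7, which sits on the peripheral arm, was lower, at 109, 102 and 109 CPM against 77.0, 73.6 and 69.2 CPM (log2 fold change −0.54, SE 0.060, adjusted p = 1.24e-06). Ndufv3, a small subunit beside the flavin site, was lower as well, at 80.0, 77.9 and 81.1 CPM against 71.3, 71.9 and 60.3 CPM (log2 fold change −0.23, SE 0.071, adjusted p = 0.00759). Neither gene overlapped between the groups. Ndufa2, a thioredoxin-like subunit, was at 73.8 ± 4.42 CPM against 76.5 ± 2.40 CPM (log2 fold change 0.05, SE 0.062, adjusted p = 0.444). Ndufa6, a partner of the acyl carrier protein in the complex, was at 88.4 ± 2.59 CPM against 89.6 ± 7.87 CPM (log2 fold change 0.02, SE 0.068, adjusted p = 0.792), while the acyl carrier gene itself was 3.82-fold higher.

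Of the 19 accessory subunits of the membrane arm, 11 were higher, 4 lower and 4 did not pass, with a median log2 fold change of 0.29. The share called was 78.9%, beside 82.0% of all genes, and 57.9% were higher, beside 43.1%. Ndufa11 (ENSMUSG00000002379; chromosome 17, 56717767 to 56722141, plus strand, 3 introns), a membrane-spanning subunit at the contact of complex I with complex III, had 2193, 2004 and 2057 reads in the si-Control-labelled libraries and 6804, 6760 and 5823 reads in si-Rbm22. Its level was 58.3 ± 2.76 CPM against 176 ± 18.3 CPM, a ratio of 3.02 (log2 fold change 1.59, SE 0.077, adjusted p = 2.03e-10). Ndufb8, a subunit of the far end of the membrane arm, was at 58.6, 55.0 and 57.9 CPM against 129, 117 and 98.3 CPM (log2 fold change 1.01, SE 0.087, adjusted p = 3.04e-07). Those 2 genes were the only membrane-arm members higher by at least 2-fold.

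Just below came Ndufa10, a subunit related to nucleoside kinases, at 105, 104 and 109 CPM against 225, 221 and 188 CPM (log2 fold change 0.99, SE 0.070, adjusted p = 9.24e-09). Ndufb10, a subunit of the far membrane arm, was at 90.9, 88.8 and 91.0 CPM against 192, 181 and 146 CPM (log2 fold change 0.94, SE 0.088, adjusted p = 8.53e-07). In both, replicate 3 of si-Rbm22 was the lowest of its group and clear of the other group. Ndufa3, Ndufb2, Ndufb5, Ndufb3 and Ndufs5, further small subunits of this arm, were higher by log2 fold changes of 0.77, 0.69, 0.65, 0.59 and 0.54, each without overlap.

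The 2 members on the X chromosome, Ndufa1 and Ndufb11, both small membrane-spanning subunits, were higher with groups that overlapped. Ndufa1 was at 45.9, 43.2 and 48.9 CPM against 58.3, 62.6 and 47.7 CPM (log2 fold change 0.29, SE 0.094, adjusted p = 0.0124). Its call was lost without replicate 2 of si-Control (adjusted p = 0.0708), replicate 1 of si-Rbm22 (0.0508) or replicate 2 of si-Rbm22 (0.0541). Ndufb11 was at 101, 95.3 and 105 CPM against 124, 114 and 102 CPM (log2 fold change 0.17, SE 0.071, adjusted p = 0.0393). Leaving out any 1 library other than replicate 3 of si-Rbm22 ended the call for Ndufb11, with adjusted p from 0.0565 to 0.24, the last without replicate 1 of si-Rbm22, where its log2 fold change was 0.09.

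Lower in si-Rbm22 were Ndufa13, Ndufb7, Ndufc1 and Ndufc2. Ndufa13 (ENSMUSG00000036199; chromosome 8, 69894180 to 69902558, minus strand, 4 introns), known also as Grim19 and studied for a part in cell death, was at 94.6, 92.5 and 101 CPM against 67.0, 63.6 and 53.3 CPM. With a ratio of 0.639 it had the lowest log2 fold change of the members (−0.65, SE 0.079, adjusted p = 4.79e-06). Ndufb7, a subunit of the intermembrane side, was at 174, 164 and 176 CPM against 140, 130 and 118 CPM (log2 fold change −0.41, SE 0.066, adjusted p = 5.61e-05). The groups did not overlap in either gene. Ndufc1 and Ndufc2, small subunits that adjoin each other in the membrane arm, were at 35.6 ± 0.484 CPM against 28.2 ± 1.74 CPM and at 46.1 ± 2.16 CPM against 37.7 ± 2.47 CPM (log2 fold changes −0.34 and −0.29, SE 0.074 and 0.072, adjusted p = 0.000685 and 0.00196).

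Ndufb6, Ndufa8, Ndufb9 and Ndufb4 did not pass. Ndufb6, a distal membrane-arm subunit, was at 52.1, 50.7 and 56.4 CPM against 54.6, 53.1 and 51.1 CPM, with completely overlapping groups (log2 fold change −0.00, SE 0.065, adjusted p = 0.956). Smim27 overlaps 39% of the exon bases of Ndufb6 on the opposite strand, and with the strand setting of the counting unknown its level is uncertain. Ndufa8, a subunit of the intermembrane face, was at 101 ± 3.69 CPM against 105 ± 5.94 CPM (log2 fold change 0.05, SE 0.060, adjusted p = 0.412). Ndufb9, another partner of the acyl carrier protein, was at 125, 125 and 120 CPM against 151, 125 and 115 CPM, and its si-Rbm22 libraries spanned the whole range of the other group (log2 fold change 0.08, SE 0.087, adjusted p = 0.404). Gm49356, which is not a row of the table, overlaps 19.5% of the exon bases of Ndufb9 on the same strand. The level of Ndufb9 is uncertain to the extent that reads were shared. Ndufb4, also of the far membrane arm, was at 47.8, 42.5 and 44.8 CPM against 51.2, 39.2 and 37.7 CPM, with replicate 1 of si-Rbm22 the highest of all 6 libraries and the other 2 the lowest (log2 fold change −0.08, SE 0.11, adjusted p = 0.523). Without replicate 1 of si-Rbm22, Ndufb4 passed as lower (log2 fold change −0.24, adjusted p = 0.013), and without replicate 3 of si-Rbm22, Ndufb9 passed as higher (0.15, adjusted p = 0.0323).

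**Figure D3:**
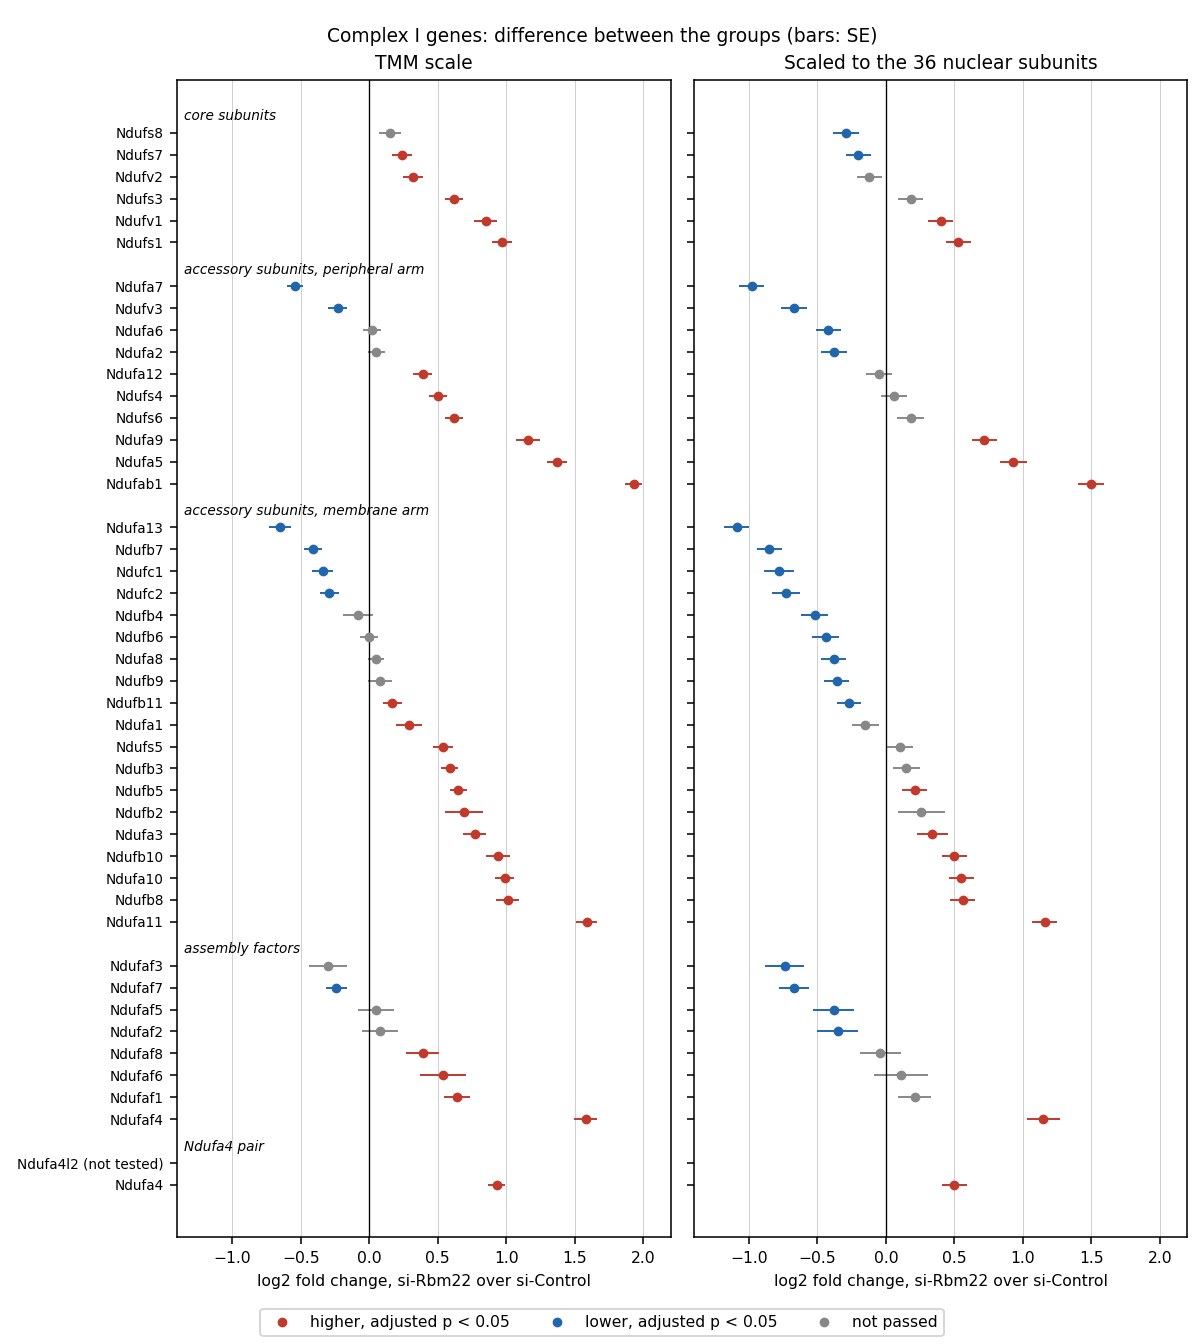
Log2 fold change of the complex I genes, si-Rbm22 over si-Control-labelled libraries, with its SE as a bar, on the TMM scale (left) and after scaling each library to the geometric mean of the 36 nuclear-encoded subunits (right); red is higher and blue lower at an adjusted p under 0.05. Most points are red on the left and more are blue than red on the right, with Ndufab1 at 1.93 and 1.5 and Ndufa13 at −0.65 and −1.09.

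Of the 8 Ndufaf assembly factors, 4 were higher, 1 lower and 3 did not pass, with a median log2 fold change of 0.24. The share called was 62.5%, below the 82.0% of all genes, and 12.5% were lower, beside 38.9%. The 4 of 8 that were higher stand beside 43.1% of all genes. Ndufaf4 (ENSMUSG00000028261; chromosome 4, 24898083 to 24905001, plus strand, 2 introns) works with Ndufaf3 on the early ubiquinone-binding module. It had 405, 430 and 433 reads in the si-Control-labelled libraries and 1258, 1317 and 1316 reads in si-Rbm22, or 11.8 ± 0.65 CPM against 35.3 ± 1.15 CPM, a ratio of 2.99 (log2 fold change 1.58, SE 0.084, adjusted p = 4.05e-10). Its partner Ndufaf3 was at 15.8, 16.9 and 18.2 CPM against 17.1, 12.9 and 11.3 CPM (log2 fold change −0.30, SE 0.14, adjusted p = 0.0638). Replicate 1 of si-Rbm22 alone lay within the other group's range, and without it Ndufaf3 passed as lower (log2 fold change −0.50, adjusted p = 0.00173).

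Ndufaf1, a member of the membrane-arm assembly complex, was at 15.6, 16.0 and 17.6 CPM against 27.5, 23.5 and 25.7 CPM (log2 fold change 0.64, SE 0.093, adjusted p = 1.76e-05). Ndufaf6, which acts early on the membrane arm, was at 5.05, 3.89 and 4.32 CPM against 6.58, 6.45 and 6.29 CPM (log2 fold change 0.54, SE 0.17, adjusted p = 0.00773). Ndufaf8, the stabilising partner of Ndufaf5, was at 9.38, 8.38 and 8.90 CPM against 12.5, 11.6 and 10.9 CPM (log2 fold change 0.39, SE 0.12, adjusted p = 0.00774). All 3 were without overlap, from as few as 141 reads in a library for Ndufaf6.

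Ndufaf5 itself, which modifies an arginine of Ndufs7, was at 10.7, 11.9 and 13.4 CPM against 12.3, 10.8 and 14.1 CPM (log2 fold change 0.05, SE 0.13, adjusted p = 0.727). Ndufaf2, a relative of the subunit Ndufa12 that holds its place during assembly, was at 10.8 ± 1.12 CPM against 11.4 ± 1.05 CPM (log2 fold change 0.08, SE 0.13, adjusted p = 0.561). Both overlapped between the groups. Ndufaf7, an arginine methyltransferase, was lower, at 28.6, 26.5 and 28.6 CPM against 24.4, 22.9 and 23.7 CPM (log2 fold change −0.24, SE 0.077, adjusted p = 0.0116). Exons of the lincRNA gene B230220B15Rik cover 65.6% of the exon bases of Ndufaf2 on the opposite strand, so the level of Ndufaf2 is uncertain while the strand setting of the counting is unknown.

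Promoter windows of the members were searched for motifs of factors known to drive respiratory genes, a feature that the choice of members did not use. RefSeq windows on GRCm38.p6, from 250 bases before to 50 bases after a gene start, were at hand for 40 members (42 windows) and for 32851 windows in all. The NRF1 motif, spelled GCGCA, any base, then GCGC, and searched on both strands like the others, was in 10 of the 42 member windows (23.8%) and in 4.6% of all windows. The 9 members with it were Ndufa11, Ndufa5, Ndufa6, Ndufa8, Ndufaf4, Ndufaf5, Ndufb4, Ndufs5 and Ndufs6, of which 5 were higher and 4 did not pass, with a median log2 fold change of 0.54 beside 0.39 over the 31 members without it. The YY1 motif AAGATGGCG was in 14.3% of member windows beside 1.4% of all windows, in Ndufa9, Ndufaf8, Ndufc1, Ndufs4, Ndufs6 and Ndufs7, of which 5 were higher and Ndufc1 lower, with a median of 0.44 beside 0.36 over the 34 without it. The ETS motif CCGGAAG of GABP was in 14.3% beside 8.86%. The 6 members with it had a lower median, 0.27 beside 0.44 over the 34 without it, with 3 higher, 1 lower and 2 not passed. The ERR motif AAGGTCA was in 7.14% beside 4.72%, in 3 members with a median of 0.54 beside 0.39. These shares are a description, and a match is not evidence of binding. Sequences are given for stretches around the NRF1 motif (in capitals), 5′ to 3′ on the gene's strand, that lie before the GENCODE gene start: 2 from the most raised members that have the motif, 1 from a moderately raised one and 1 from a member that did not pass.
Ndufa11, chr17:56717677-56717736, plus strand: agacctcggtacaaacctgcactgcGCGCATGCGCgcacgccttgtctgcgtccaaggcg
Ndufaf4, chr4:24897945-24898004, plus strand: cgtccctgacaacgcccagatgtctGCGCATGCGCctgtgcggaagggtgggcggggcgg
Ndufs5, chr4:123718250-123718309, minus strand: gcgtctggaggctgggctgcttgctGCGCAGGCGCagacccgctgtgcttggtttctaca
Ndufb4, chr16:37654525-37654584, minus strand: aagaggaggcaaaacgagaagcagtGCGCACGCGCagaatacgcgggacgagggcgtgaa
Ndufa11 and Ndufaf4 carry the same 10 motif letters and had log2 fold changes of 1.59 and 1.58, while Ndufs5 had 0.54 and Ndufb4 −0.08. The letters printed for Ndufs5 are also in Ndufa5, at 1.37, and at other sites of Ndufb4. Members with the same letters thus differed in fold change, and any link between letters and level was not tested.

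The members were also compared with the shared shift of the subunits. With each library scaled so that the geometric mean of the 36 nuclear-encoded subunits was equal, 33 of 45 members differed between the groups, 14 higher and 19 lower, and of the 36 subunits alone 12 were higher and 15 lower. The share of members called was 73.3%. Of the 45 members, 36 themselves set the zero of this scale. The share called and the balance of higher and lower are thus partly fixed by the scaling, and cannot be weighed against all genes. On this scale 28.8% of all genes were higher and 53.7% lower, 82.5% in either direction, and the median of all genes was −0.38, so a value of 0 means a rise like that of the subunits together. The highest were Ndufab1 at 1.5 (SE 0.095), Ndufa11 at 1.16 (SE 0.093), Ndufaf4 at 1.15 (SE 0.12) and Ndufa5 at 0.93 (SE 0.099). The lowest were Ndufa13 at −1.09 (SE 0.094), Ndufa7 at −0.98 (SE 0.092), Ndufb7 at −0.85 (SE 0.090) and Ndufc1 at −0.78 (SE 0.11). By at least 2-fold, 3 members were higher (20.3% of all genes) and 1 lower (28.1% of all genes). Adjusted p for these 8 was from 6.53e-16 for Ndufab1 to 5.88e-08 for Ndufc1. All 14 genes higher on this scale were also higher on the TMM scale, and Ndufs7 and Ndufb11 were higher on the TMM scale and lower on this one. In the core, Ndufs1 and Ndufv1 rose by more than the subunits together (0.53 and 0.40) and Ndufs8 was lower on this scale (−0.29), while Ndufs3 and Ndufv2 did not pass (0.18 and −0.12). The value of Ndufs7 against the subunits was −0.20, with an adjusted p of 0.0497, and it did not pass without any 1 of the si-Control-labelled replicates or without replicate 2 of si-Rbm22 (adjusted p from 0.0958 to 0.142).

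Levels of the subunits per kilobase also differed widely within each library. Per kilobase of merged exons, Ndufa2 was the highest in the si-Control-labelled libraries at 129 ± 7.73 CPM per kb, followed by Ndufb9 at 120 ± 2.85 and Ndufa8 at 117 ± 4.28. Ndufb9 and Ndufa8 differed by less than their spread, and in replicate 2 Ndufb9 was the highest, at 121 CPM per kb. The rank of Ndufb9 is uncertain, given its overlap with Gm49356. In si-Rbm22, Ndufa2 was at 134 ± 4.19 and Ndufa11 at 161 ± 16.8 CPM per kb. Ndufb2 was the lowest subunit in both groups, at 1.13 ± 0.0551 and 1.83 ± 0.203 CPM per kb. Its merged exons hold 5628 bases, of which 2.58% overlap Gm42420 on the same strand and 2.59% overlap Braf on the other. The principal transcript of Ndufb2 is annotated at 4371 bases, and the pseudogene copy Gm13186 matches part of it at 92.1% identity. The level of Ndufb2 per kilobase is uncertain, and the part of these features in its low value was not tested. The coefficient of variation over the 36 subunits was 66.4% ± 0.503 in the si-Control-labelled libraries and 65.0% ± 1.41 in si-Rbm22. The order depends on the length taken: per kilobase of the principal transcript, Ndufb7 led in the si-Control-labelled libraries at 275 ± 10.1 CPM per kb and Ndufa11 led in si-Rbm22 at 323 ± 33.6, while Ndufb2 was again the lowest. Among the assembly factors, the level per kilobase of principal transcript was between 3.26 for Ndufaf4 and 15.9 for Ndufaf2 and Ndufaf7 in the si-Control-labelled libraries, and between 5.95 for Ndufaf6 and 17.6 for Ndufaf1 in si-Rbm22.

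Ndufa4 and Ndufa4l2 carry the family name, but Ndufa4 is now counted as a subunit of cytochrome c oxidase, and Ndufa4l2 is its hypoxia-induced paralog. Ndufa4 had 4217, 4145 and 4217 reads in the si-Control-labelled libraries and 8744, 7799 and 8171 reads in si-Rbm22, or 117 ± 3.74 CPM against 224 ± 12.5 CPM (log2 fold change 0.93, SE 0.059, adjusted p = 2.79e-09). Ndufa4l2 had 12, 20 and 8 reads against 0, 5 and 9 reads, too few to be tested with the other members. Its summed reads, 40 against 14, gave a scaled ratio of 0.341 with a 95% counting interval of 0.171 to 0.64. Of the reads of the pair, Ndufa4l2 took 0.284%, 0.48% and 0.189% in the si-Control-labelled libraries (exact 95% binomial intervals 0.147 to 0.495, 0.294 to 0.741 and 0.0818 to 0.373) and 0%, 0.0641% and 0.11% in si-Rbm22 (the last 2 with intervals 0.0208 to 0.149 and 0.0503 to 0.209), where the 0 reads of replicate 1 have an exact interval up to 0.0422% (0.0343% by the limit of 3 reads of the total). The shares did not overlap between the groups, at 0.318% ± 0.148 against 0.058% ± 0.0553, with an exact two-sided permutation p of 0.1, the smallest possible. The level of Ndufa4l2 itself did overlap, at 0.331, 0.551 and 0.23 CPM against 0, 0.139 and 0.24 CPM. A share also falls when Ndufa4 rises, as it did here. Intervals cover counting error only. With no filter on low counts, Ndufa4l2 did not pass (log2 fold change −1.56, SE 0.86, adjusted p = 0.109). With 1 library left out the value of Ndufa4l2 was between −0.97 (adjusted p = 0.184, without replicate 1 of si-Rbm22) and −2.38 (adjusted p = 0.0106, without replicate 3 of si-Rbm22), where it was tested, and the last of these passed.

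Transcripts of the subunits encoded in mitochondrial DNA, which form the core of the membrane arm, rose by more than the nuclear-encoded subunits together. Their summed level was 5507, 5774 and 6282 CPM in the si-Control-labelled libraries and 22650, 23040 and 20850 CPM in si-Rbm22, a ratio of 3.79. Of 7 genes 6 were higher (85.7%, beside 43.1% of all genes), with a median log2 fold change of 1.72. Scaled to the 36 nuclear-encoded subunits, 6 of the 7 were still higher, with a median of 1.28. The gene mt-Nd2 was at 757 ± 60.2 CPM against 4840 ± 200 CPM (log2 fold change 2.68, SE 0.070, adjusted p = 2.18e-13), mt-Nd5 had a log2 fold change of 1.96, mt-Nd4l 1.95, mt-Nd1 1.72, mt-Nd4 1.53 and mt-Nd3 1.22. Only mt-Nd6, at 79.0 ± 25.6 CPM against 85.8 ± 3.09 CPM, did not pass (log2 fold change 0.12, SE 0.22, adjusted p = 0.631), and as the one gene of the 7 on the other strand, where it adjoins mt-Nd5, it is uncertain without the strand setting. Replicate 3 of si-Control, at 108 CPM of mt-Nd6 beside 69.9 and 59.2 CPM in the other 2, decided this: without that library all 7 genes passed. The number of mitochondrial-genome subunit reads per nuclear subunit read was 2.0, 2.17 and 2.24 in the si-Control-labelled libraries and 5.35, 5.83 and 5.9 in si-Rbm22, so the groups were far apart within the complex too (ratio 2.66, exact permutation p = 0.1).

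Assembly factors under other names also moved both ways. Of 13, 9 were higher and 2 lower, with a median log2 fold change of 0.49. That is 84.6% called, beside 82.0% of all genes, and 69.2% higher, beside 43.1%. Dmac2, a factor of the distal membrane arm, was at 8.43 ± 0.276 CPM against 28.1 ± 0.956 CPM (log2 fold change 1.74, SE 0.092, adjusted p = 3.88e-10). Nubpl, which brings iron-sulfur clusters to the peripheral arm, was lower, at 13 ± 1.39 CPM against 5.93 ± 0.786 CPM (log2 fold change −1.14, SE 0.14, adjusted p = 4.12e-06). General iron-sulfur cluster makers were 7 higher and 3 lower of 14 (median 0.15). The share called was 71.4%, below the 82.0% of all genes, and 21.4% were lower, beside 38.9%. The 7 of 14 that were higher stand beside 43.1% of all genes. Among the cluster makers, the ferredoxin reductase Fdxr had a log2 fold change of −1.30 (adjusted p = 5.76e-07).

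The median of the nuclear-encoded complex I subunits, 0.44, stood below those of complexes III, IV and V, although the differences between complexes were not tested. The lists of complexes II and III also hold assembly factor genes. Their medians are therefore not over subunits alone, as that of complex I is. Beside each count that follows, 43.1% of all genes tested were higher and 38.9% lower. Complex III had 11 of 15 genes higher and 2 lower (median 1.02), with its assembly factor genes Uqcc1 at 1.64 and Uqcc2 at −0.91. Of the ubiquitous complex IV subunits 9 of 10 were higher (median 0.83), with Cox5a, of the smallest p, at 1.56, and of the ATP synthase subunits 13 of 15 were higher and 1 lower (median 0.98), with Atp5o at 1.49 and Atp5g2, one of 3 genes for the same ring subunit, at −0.84. Complex II, the other entry to the chain, had 5 of 8 higher and 1 lower (median 0.52), with Sdhd at 1.31 and the assembly factor gene Sdhaf4 at −0.94. The subunit genes of complex II ran from 0.23 to 1.39, and its assembly factor genes from −0.94 to 0.82. All 10 genes of the matrix dehydrogenases that supply NADH to complex I were higher (median 1.00), with the isocitrate dehydrogenase subunit Idh3a at 2.15. The count was 9 of 10 with no filter on low counts and without replicate 1 or 2 of either group, and the lowest log2 fold change was 0.34, for Idh3g (named after its values were seen), whose groups overlapped (adjusted p = 0.0201). Enzymes that use or make ubiquinone by other routes were 10 higher and 3 lower of 17 (median 0.22), with Etfdh, the entry for electrons from fatty acid oxidation, at 1.16 and the glycerol phosphate dehydrogenase Gpd2 at −0.43. Each of the other genes named here passed at an adjusted p of at most 5.46e-05.

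**Figure D4:**
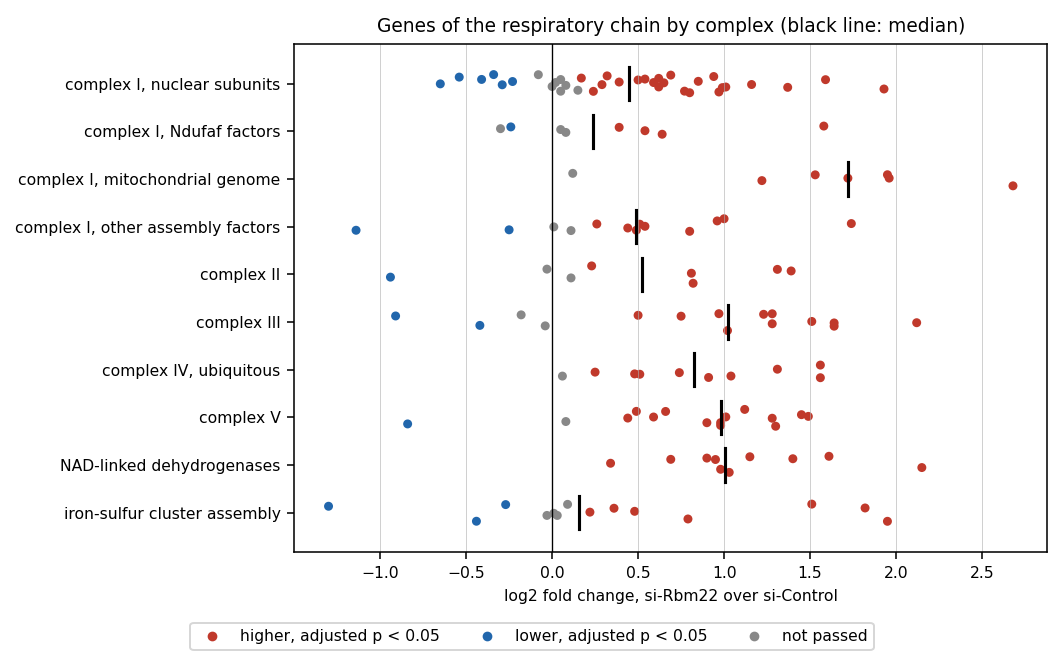
Log2 fold change (si-Rbm22 over si-Control-labelled libraries, TMM scale) of each tested gene in lists for complex I and its partners, 1 point per gene, red higher, blue lower and grey not passed, with the list median as a black line. Medians run from 0.15 for iron-sulfur cluster assembly to 1.72 for the complex I subunits of mitochondrial DNA, and the 36 nuclear-encoded subunits spread on both sides of 0 about a median of 0.44. The lists of complexes II and III include assembly factor genes.

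Transcription factors and coactivators of respiratory genes were 11 higher of 14, and the other 3 did not pass. The share called, all of it higher, was 78.6%, beside 82.0% called and 43.1% higher of all genes. Ppargc1a, the coactivator of mitochondrial gene programs, had 9, 10 and 3 reads in the si-Control-labelled libraries and 2335, 2271 and 2231 reads in si-Rbm22 (log2 fold change 8.22, adjusted p = 1.23e-14). The factors whose motifs were searched are given too, although the naming rule picked only Nrf1 among them. Nrf1 was at 33.6 ± 1.40 CPM against 30.3 ± 0.720 CPM (log2 fold change −0.15, SE 0.071, adjusted p = 0.070), Gabpa, the DNA-binding subunit of GABP, at 75.1 ± 3.46 against 98.0 ± 2.87 CPM (log2 fold change 0.38, SE 0.058, adjusted p = 2.87e-05), and Esrra at 40.4 ± 3.79 against 89.9 ± 11.6 CPM (log2 fold change 1.15, SE 0.098, adjusted p = 4.59e-07). Esrrg had 4, 5 and 2 reads against 1217, 1131 and 1065 reads, and Esrrb no read against 209, 227 and 143 reads. Yy1 was higher, at 60.2 ± 0.67 CPM against 87.7 ± 7.07 CPM (log2 fold change 0.54, SE 0.066, adjusted p = 3.1e-06). What part these factors have in the members' levels was not tested.

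The members are spread over 17 chromosomes with at most 6 on any one, and are short genes with few introns. Their median number of introns was 3, beside 8 over 13968 tested protein-coding genes, and the median length of the principal transcript was 983 bases beside 3040. Across the 45 members, Spearman's correlation of the log2 fold change was 0.28 with the number of introns, 0.21 with transcript length and 0.28 with mean CPM. Over all coding genes it was 0.01, 0.13 and −0.16. These are descriptions across genes that share the same 6 libraries and are not independent replicates.

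Near-identical copies limit some counts. Of the 46 members, 13 have at least 1 of 17 annotated pseudogene copies (at least 90% identity over 200 aligned bases), none of which is a row of the table, and exons of 19 members overlap another gene. The 20 members with neither showed 12 higher, 4 lower and 4 not passed, with a median log2 fold change of 0.30. The 13 with a copy showed 10 higher, 2 lower and 1 not passed, with a median of 0.59. The shares called were 80.0% with neither and 92.3% with a copy, beside 82.0% of all genes. Those with a copy include Ndufab1, Ndufa11, Ndufa7, Ndufb7, Ndufb4, Ndufs3 and Ndufa4 among the genes given above. The copy of Ndufb4, Ndufb4c, matches part of its transcript at 100% identity. Ndufaf4, Ndufa5, Ndufs1, Ndufv1, Ndufa13 and Ndufc1 have none.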

How the data were processed

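The authors deposited 1 table of raw read counts, in whole numbers, by Ensembl gene and library (6 libraries, totals that differ). The tools DESeq2, fastp, HISAT2 and HTSeq and the build GRCm38 are listed without roles, per the submitters' processing notes; the annotation release, like the strand setting, is not given in the sources used here. RNA was extracted with TRIzol and made into libraries with a VAHTS kit, per the labels' protocols. Of 18951 gene identifiers, 18856 matched GENCODE M21 (GRCm38), the source of symbols and positions.

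Groups came from the sample titles. Each library was 1 sample, as replicate counts differed by more than sampling noise (chi-square per degree of freedom 4.52 to 7.05 and 10.5 to 30.94). Counts over the whole table were tested with edgeR 4.0.16 in R 4.3.3 (TMM, filterByExpr, robust quasi-likelihood fit, group only), with Benjamini-Hochberg adjustment over 14621 genes. Each SE was taken as the size of the log2 fold change over the square root of its F. A second fit scaled each library to the geometric mean of the 36 nuclear-encoded subunits, after adding 0.5 to each count. Summed levels and shares had exact permutation tests over libraries. Markers of 9 cell types and 10 further gene lists were counted, not tested as sets. The members and lists were chosen with earlier results of these data known.

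By rule, values were given for Rbm22, the core subunits, the assembly factors, the Ndufa4 pair, the 4 largest and 2 smallest changes of each accessory arm, all members that fell or did not pass, the 4 largest departures each way from the shared shift, and the smallest p in each direction of every other list. Some genes this rule picked are not reported here, and they stay in the counts, sums and medians. Simulated counts over 14444 genes gave back 58% of genes changed 1.25-fold, 70% at 1.5-fold and 100% at 2-fold and 4-fold. Of the 14244 genes left unchanged, 0.0421% were called. The simulation changed only 50 genes at each fold, while 82.0% of all genes were called in the data. Its rates therefore do not carry over to this comparison. Alternatives were RLE scaling, no filter, a filter of 10 CPM in 3 libraries, DESeq2 1.42.0, limma-voom 3.58.1, mitochondrial transcripts left out, the replicate block, each library left out, other thresholds and other lengths. Lengths of APPRIS principal transcripts were added after the data were seen.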

Additional observations from a re-analysis of the deposited data

How the results depend on the processing

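Of 312 alternatives to the counts and summary values, 290 stayed in the same class as the value reported. These classes were broad. A count could shift moderately and keep its class, and a ratio had only to stay on its side of 1. On the TMM scale 33 of 45 members, and against the subunits 38 of 45, kept their direction and their side of the threshold in every fit. When a called gene also had to change at least 2-fold, Rbm22 was no longer called (log2 fold change −0.78), 6 members were higher and 0 lower (unadjusted p under 0.05 alone gave 35 in both directions), and 3 members departed from the subunits upward and 1 downward. Counts under that rule were 0 for core subunits, 3 and 2 for accessory subunits of the peripheral and membrane arms, 1 for Ndufaf factors, 2 for other assembly factors, 2, 8, 4 and 6 for complexes II, III, IV and V, 5 for NAD-linked dehydrogenases, 3 for quinone routes, 4 for iron-sulfur assembly and 6 for regulators, because the rule is stricter. Over all genes tested, 24.4% were higher and 18.7% lower by at least 2-fold. With each library left out in turn, 25 to 30 members were higher and 7 to 9 lower, and 12 to 15 and 16 to 20 departed from the subunits. The coefficient of variation was 59.9% and 57.9% by the longest transcript and 65.8% and 60.2% by the principal transcript. Members that did not pass changed sign in some fits. With 1 library left out, Ndufa2 ranged from −0.01 (without replicate 2 of si-Control) to 0.07, Ndufa6 from −0.05 (without replicate 1 of si-Rbm22; −0.02 without replicate 2 of si-Control) to 0.08, Ndufa8 from −0.00 and Ndufb9 from −0.05 (both without replicate 1 of si-Rbm22) to 0.08 and 0.15, and Ndufaf5 from −0.06 (without replicate 3 of si-Rbm22; −0.03 without replicate 1 of si-Control) to 0.14. Ndufa6 was at −0.01 with no filter. Ndufb6 was at 0.04 with the 10 CPM filter, 0.01 by DESeq2, 0.01 by RLE, 0.02 without replicate 3 of si-Control and 0.01 without replicate 3 of si-Rbm22. For these the cause was not tested. Same-numbered libraries of the 2 groups did not deviate together (r of −0.016, 0.007 and 0.008), so no pairing by number was seen in the counts. Whether same-numbered cultures were made together cannot be told from these correlations. With the replicate block 28 members were higher and 7 lower, and 13 and 18 departed from the subunits. Ndufb5 against the subunits (0.21, adjusted p = 0.0584) and Ndufs7 against the subunits (−0.20, adjusted p = 0.0729) lost their calls there and without several single libraries, as Ndufa3, Ndufaf2 and Ndufaf5 did against the subunits without some single libraries. Ndufaf6, with 141 reads in one library, had the widest SE of the tested members (0.17 on the TMM scale).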
